A study of Mus musculus with 2 samples.

Results

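The 40 genes described here encode the proteins that bring glucose into the cell, break it down to pyruvate, and send the pyruvate to lactate or to the mitochondria. They are glucose transporters, glycolytic isozymes, the PFKFB enzymes, lactate dehydrogenases and transporters, kinases and phosphatases of pyruvate dehydrogenase (PDH), and the mitochondrial pyruvate carrier. They were taken by gene symbol from the 22838 genes of the deposited table, and all 40 were found there. RNA came from NIH3T3 cells, an established line of mouse embryo fibroblasts. The ALA group was 1 library of cells given ALA at 100 µM over 16 h, and the untreated group was 1 library of the same line with no addition. The labels do not spell out ALA. In studies of heme the letters stand for δ-aminolevulinic acid, a precursor that cells turn into heme. The labels give no other difference between the libraries, and the comparison asks which transcripts differ when ALA is added. Each group is 1 library, so the spread between cultures is unknown, and differences are described without p-values.

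Glucose enters fibroblasts mainly through the transporter encoded by Slc2a1. Hexokinase traps it as glucose phosphate, and the phosphofructokinase step commits it to glycolysis. Pyruvate at the end is either reduced to lactate by lactate dehydrogenase, or carried into mitochondria, where PDH turns it into acetyl-CoA unless PDH kinases have switched the complex off. Many genes of this route are textbook targets of the hypoxia-inducible factors (HIF), and most steps have several isozymes that differ in their tissue of use.

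Values are FPKM, fragments scaled by transcript length and by library size, so levels of different genes are compared per length. A log2 ratio below is log2((ALA FPKM + 1)/(untreated FPKM + 1)). The added 1 shrinks the difference of genes with low values, and a fold given for a gene is the plain ratio of FPKM. Whether a gene counts as 1.5-fold or 2-fold apart is read from the log2 ratio, with the 1 added. A gene is called measured where its mean over both libraries was at least 1 FPKM, which held for 10929 genes. Estimated depth was 32200000 reads in the ALA library and 22400000 in the untreated library, and FPKM summed to 512324 with ALA and 540963 untreated. Fibroblast markers were all measured, 8 of 8, with S100a4 highest at 4717 FPKM with ALA and 4976 FPKM untreated. S100a4 shares 48.25% of its sequence with Gm42674. Thy1 was the only fibroblast marker 1.5-fold apart, with 38.8 FPKM with ALA and 60.2 FPKM untreated. Of 5 muscle markers 1 was measured, Des, with 1.12 FPKM with ALA and 1.95 FPKM untreated, while Myod1, Myog and Ckm were listed at 0 in both. Of 4 epithelial markers 1 was measured, Cdh1, with 0.944 FPKM with ALA and 1.23 FPKM untreated, and Epcam was listed at 0 in both. Of 4 adipocyte markers 1 was measured, Lpl, with 52.3 FPKM with ALA and 51.3 FPKM untreated, and Adipoq, Fabp4 and Plin1 were listed at 0 in both. Of 4 erythroid markers 1 was measured, Epor, with 1.83 FPKM with ALA and 2.50 FPKM untreated. In the table are 4 macrophage and blood markers, of which 2 were measured. Both were at least 1.5-fold lower, where 7.16% of all measured genes were. Cd14 had 4.69 FPKM with ALA and 13.1 FPKM untreated. Lyz2 had 9.59 FPKM with ALA and 15.2 FPKM untreated, and shares 22.26% of its sequence with Lyz1. Cd68 and Ptprc, below the level called measured, went the other way. Cd68 had 1.40 FPKM with ALA and 0.237 FPKM untreated, and Ptprc had 0.754 FPKM with ALA and 0.367 FPKM untreated. The macrophage and blood list summed to 16.4 FPKM with ALA and 28.96 FPKM untreated. The part of these markers in the results was not tested.

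Of the 40 members 32 were measured. The glycolytic chain was lower in the ALA library, while the genes that handle its product were split. Among measured members 25 were lower and 7 higher with ALA, where 52.2% of all measured genes were lower and 47.8% higher. At least 1.5-fold lower were 13 members, or 40.6% of those measured, against a background of 7.16% of all measured genes. Without the members that share or overlap at least 10% of their sequence with other genes, the count was 6 of 21. At least 2-fold lower were 4, the kinase gene Pdk1, the hexokinase gene Hk2, the phosphofructokinase gene Pfkl and Slc2a1, against a background of 2.01%. With equal library totals Slc2a1 was no longer 2-fold lower and the count was 3. The only member at least 1.5-fold higher was the transporter gene Slc2a8, against 5.9% of all measured genes, and it was not called with a pseudocount of 5 or where the mean had to reach 5 FPKM. The median log2 ratio of the measured members was -0.40, and that of all measured genes was -0.02. Without the members of shared sequence it was -0.20. Because each culture was measured as bulk RNA, fewer cells with a transcript and less transcript per cell cannot be told apart.

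**Figure D1:**
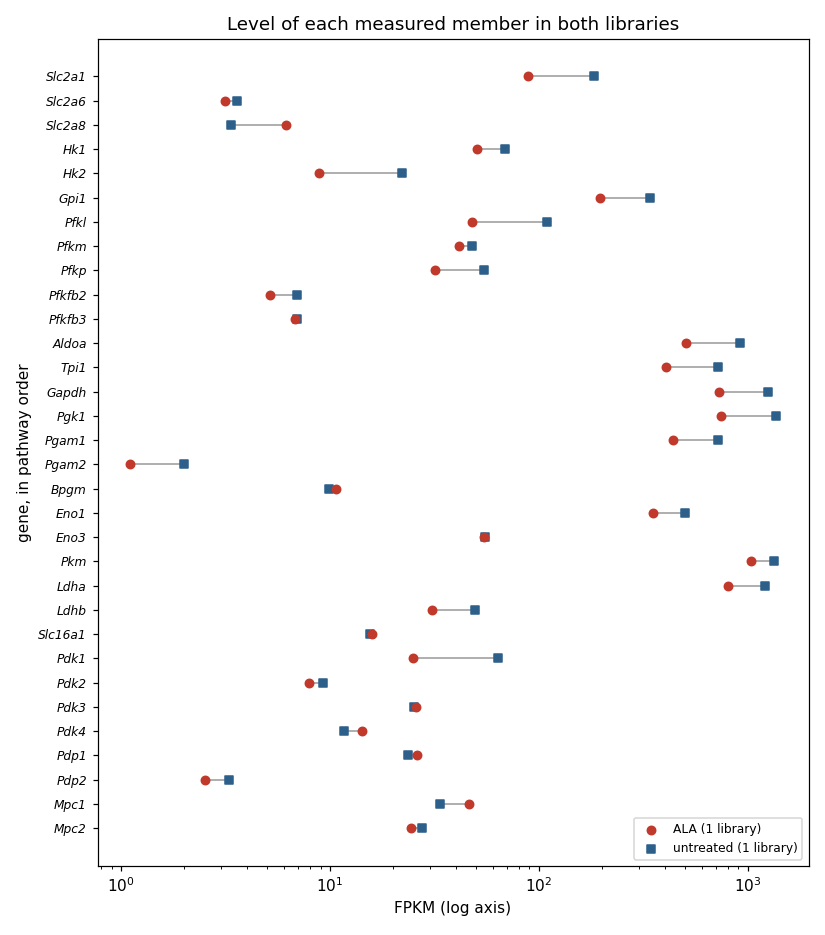
FPKM of the 32 measured members on a log axis, in pathway order from glucose transport at the top to the pyruvate carrier at the bottom, with a circle for the ALA library and a square for the untreated library. The circle lies left of the square for 25 genes, among them every step from Gpi1 to Pgam1, and right of it for 7.

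Pdk1 encodes the PDH kinase that lowers entry of pyruvate into the mitochondrial cycle. It had 25.03 FPKM with ALA and 64.0 FPKM untreated, a log2 ratio of -1.32. Hk2, the inducible hexokinase of muscle, fat and tumour cells, had 8.85 FPKM with ALA and 22.1 FPKM untreated, a log2 ratio of -1.23. Pfkl, the liver-type phosphofructokinase, had 47.6 FPKM with ALA and 109 FPKM untreated, a log2 ratio of -1.18. Slc2a1 had 88.9 FPKM with ALA and 184 FPKM untreated, a log2 ratio of -1.04. These genes had the lowest ratios of the list and each shared under 2% of its sequence with another annotated gene, so their promoter windows are shown. Pdk1 has a second window in the table, with no match of either core, and the one shown lies at the start of the gene in the deposited table. Each window runs from 250 bases before to 50 bases after a transcript start in RefSeq, build GRCm38.p6, the assembly that mm10 names. Capitals mark ACGTG and GCGTG, the core letters to which HIF can bind, on either strand, so that CACGT and CACGC are capitals too.
Pdk1, chr2:71872974-71873273, plus strand: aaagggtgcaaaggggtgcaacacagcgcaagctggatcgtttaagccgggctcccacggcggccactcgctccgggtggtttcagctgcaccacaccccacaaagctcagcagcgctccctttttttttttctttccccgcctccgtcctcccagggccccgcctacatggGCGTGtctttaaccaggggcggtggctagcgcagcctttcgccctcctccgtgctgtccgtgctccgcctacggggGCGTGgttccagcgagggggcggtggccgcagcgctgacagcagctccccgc
Hk2, chr6:82774405-82774704, minus strand: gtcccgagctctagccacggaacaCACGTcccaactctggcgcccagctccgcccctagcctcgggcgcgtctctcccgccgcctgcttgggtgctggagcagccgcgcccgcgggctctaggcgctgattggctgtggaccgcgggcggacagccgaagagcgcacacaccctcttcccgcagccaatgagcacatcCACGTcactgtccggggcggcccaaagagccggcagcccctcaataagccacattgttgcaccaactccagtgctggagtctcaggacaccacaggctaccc
Pfkl, chr10:78009758-78010057, minus strand: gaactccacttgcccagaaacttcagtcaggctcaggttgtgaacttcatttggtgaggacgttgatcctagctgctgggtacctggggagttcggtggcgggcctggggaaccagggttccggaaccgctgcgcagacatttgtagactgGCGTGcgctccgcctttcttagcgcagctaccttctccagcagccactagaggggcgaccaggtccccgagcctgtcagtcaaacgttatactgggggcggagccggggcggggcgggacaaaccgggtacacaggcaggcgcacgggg
Slc2a1, chr4:119108495-119108794, plus strand: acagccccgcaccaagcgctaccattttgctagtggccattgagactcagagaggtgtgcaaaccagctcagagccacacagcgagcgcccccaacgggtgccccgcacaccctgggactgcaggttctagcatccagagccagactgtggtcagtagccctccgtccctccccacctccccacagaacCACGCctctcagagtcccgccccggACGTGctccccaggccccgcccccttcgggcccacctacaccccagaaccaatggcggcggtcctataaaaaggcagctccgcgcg

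The pairs within a step whose log2 ratios lay farthest apart were Slc2a1 with Slc2a8, by 1.76, and Pdk1 with the starvation-induced kinase gene Pdk4, by 1.58. The windows of these partners, which were both higher with ALA, are shown for comparison.
Pdk4, chr6:5496229-5496528, minus strand: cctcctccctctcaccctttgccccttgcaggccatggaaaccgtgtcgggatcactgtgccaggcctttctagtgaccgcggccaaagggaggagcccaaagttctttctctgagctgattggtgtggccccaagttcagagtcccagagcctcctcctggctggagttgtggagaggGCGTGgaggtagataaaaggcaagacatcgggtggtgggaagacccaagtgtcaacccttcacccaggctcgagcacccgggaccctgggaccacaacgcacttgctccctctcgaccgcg
Slc2a8, chr2:32982034-32982333, minus strand: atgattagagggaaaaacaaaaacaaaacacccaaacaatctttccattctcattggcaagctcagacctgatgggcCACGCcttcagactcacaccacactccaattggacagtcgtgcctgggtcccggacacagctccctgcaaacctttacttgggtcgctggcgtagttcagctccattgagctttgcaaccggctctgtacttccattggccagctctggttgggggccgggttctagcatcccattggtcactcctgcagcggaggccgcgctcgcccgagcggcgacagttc
The windows of Pdk4 and Slc2a8 each held 1 core match, as did that of Pfkl, while those shown for Pdk1, Hk2 and Slc2a1 held more. A match is a description of the letters and not a bound site.

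The windows of Ldha, the muscle-type lactate dehydrogenase, and of Slc16a1, the lactate transporter MCT1, are shown as examples with many core matches. They were picked after their values were seen, and a relation of matches to ratios was not tested. Ldha has a second window, in which ACGTG did not match and GCGTG matched 2 times.
Ldha, chr7:46845554-46845853, plus strand: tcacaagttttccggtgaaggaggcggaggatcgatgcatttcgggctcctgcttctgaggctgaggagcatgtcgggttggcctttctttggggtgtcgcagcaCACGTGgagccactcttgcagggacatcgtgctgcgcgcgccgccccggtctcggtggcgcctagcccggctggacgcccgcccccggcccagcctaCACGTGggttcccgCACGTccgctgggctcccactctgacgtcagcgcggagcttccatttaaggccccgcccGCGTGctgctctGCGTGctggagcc
Slc16a1, chr3:104638414-104638713, plus strand: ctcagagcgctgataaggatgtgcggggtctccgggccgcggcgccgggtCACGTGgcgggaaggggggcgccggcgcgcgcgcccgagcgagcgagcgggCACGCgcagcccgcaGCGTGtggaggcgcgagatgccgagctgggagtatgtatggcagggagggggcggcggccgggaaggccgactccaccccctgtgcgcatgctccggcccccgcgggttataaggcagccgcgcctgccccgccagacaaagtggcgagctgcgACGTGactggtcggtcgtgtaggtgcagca
In the Ldha window ACGTG matched 5 times and GCGTG 2 times, and the log2 ratio of Ldha was -0.59. In the Slc16a1 window ACGTG matched 3 times and GCGTG 2 times, and its log2 ratio was 0.02. The E-box CACGTG holds ACGTG on both strands and therefore gives a pair of matches, once in Slc16a1 and at 2 places in Ldha.

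Promoter windows were found in RefSeq for 37 members, 57 windows in all, and Slc2a3, Slc2a4 and Pdp1 had none in the table used. ACGTG was in 40.4% of the members' windows, in 26.2% of the 10681 windows of measured genes and in 19.6% of all 32851 windows. GCGTG was in 52.6% of the members' windows, in 52.4% of those of measured genes and in 32.4% of all. The E-box CACGTG was in 12.3% of the members' windows, in 10.2% of those of measured genes and in 7.15% of all. Within the list, ACGTG was in 47.1% of 17 windows of the members at least 1.5-fold lower and in 40% of 30 windows of the other measured members. GCGTG was in 52.9% of the windows of the lower members and in 56.7% of those of the other measured members. CACGTG was in 5.88% of the windows of the lower members and in 20% of those of the other measured members. Windows of 1 gene can overlap, and the median G and C content was 60.3% in the members' windows, 61.0% in those of measured genes and 52.7% in all.

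Slc2a1 made up 90.5% of the summed FPKM of the 5 transporter members with ALA and 96.4% untreated. Slc2a10, a measured transporter gene that is not a member, had 6.52 FPKM with ALA and 4.30 FPKM untreated, a log2 ratio of 0.50. Slc2a1 lies on chromosome 4 from 119108711 to 119137983, and with about 9220 reads with ALA and 13297 untreated its fold of 2.07 lower had a 95% counting interval of 2.02 to 2.13. These intervals reflect counting error alone, at the estimated depths. Slc2a8, which encodes a transporter of internal membranes, had 6.17 FPKM with ALA and 3.35 FPKM untreated, from about 411 reads with ALA and 155 untreated. It was 1.84-fold higher, with a counting interval of 1.53 to 2.23, opposite to Slc2a1. Its log2 ratio was 0.72, and 0.42 with a pseudocount of 5. Slc2a6, also a transporter of internal membranes, had 3.15 FPKM with ALA and 3.57 FPKM untreated, and its counting interval of 0.717 to 1.09 for the ratio of ALA to untreated includes 1. The neuronal transporter gene Slc2a3 had 0.0255 FPKM with ALA and 0.0122 FPKM untreated, and Slc2a4, the insulin-responsive transporter of muscle and fat, was listed at 0 in both.

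The hexokinase genes had unequal ratios. Hk1, the housekeeping hexokinase, had 50.7 FPKM with ALA and 68.9 FPKM untreated, a log2 ratio of -0.44. Hk2 was 2.49-fold lower and Hk1 was 1.36-fold lower, so Hk2 was 14.9% of hexokinase FPKM with ALA and 24.2% untreated. The summed hexokinase level was 59.6 FPKM with ALA and 91.0 FPKM untreated. Hk3, the hexokinase of white blood cells, was listed at 0 in both libraries.

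Gpi1, which interconverts glucose and fructose phosphates, had 196 FPKM with ALA and 339 FPKM untreated, 1.73-fold lower. At the next step the 3 phosphofructokinase genes ranked Pfkl, Pfkp, Pfkm by the size of the difference. Pfkp, the platelet type, had 31.7 FPKM with ALA and 54.5 FPKM untreated, a log2 ratio of -0.76. Pfkm, the muscle type, had 41.4 FPKM with ALA and 48.0 FPKM untreated, a log2 ratio of -0.21. Pfkl was the most abundant phosphofructokinase transcript in both libraries, with 39.4% of the step with ALA and 51.5% untreated, while Pfkm had 34.3% with ALA and 22.7% untreated. The sum of the step was 121 FPKM with ALA and 211 FPKM untreated.

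**Figure D2:**
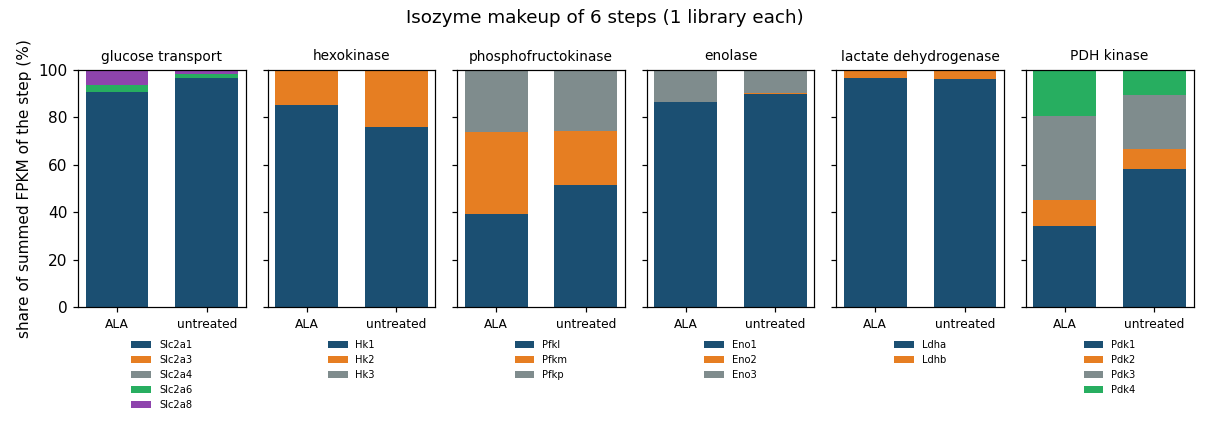
Share of the summed FPKM of a step, in percent, held by each isozyme, for 6 steps, with the ALA library in the left bar and the untreated library in the right bar of each pair. Pdk1 takes 34.3% of the PDH kinase bar with ALA and 58.1% untreated, while the lactate dehydrogenase bars are nearly the same.

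The PFKFB enzymes make and remove fructose bisphosphate signals that switch phosphofructokinase on. None of them was 1.5-fold apart. Pfkfb3, a form with strong kinase activity, had 6.82 FPKM with ALA and 6.94 FPKM untreated. Its log2 ratio of -0.02 turned positive when library totals or upper quartiles were made equal. Pfkfb2, the heart form, had 5.18 FPKM with ALA and 6.97 FPKM untreated, a log2 ratio of -0.37, but shares 17.9% of its sequence, mostly with Gm29427. Pfkfb1, the liver form, had 0.904 FPKM with ALA and 0.697 FPKM untreated, and Pfkfb4 had 0.667 FPKM with ALA and 0.879 FPKM untreated, so both were under the level called measured.

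The middle of the pathway had closely similar folds. Aldoa, the aldolase of muscle and most other tissues, had 506 FPKM with ALA and 916 FPKM untreated. Tpi1, which interconverts the triose phosphates, had 406 FPKM with ALA and 716 FPKM untreated. Gapdh, whose enzyme makes the NADH of the pathway, had 727 FPKM with ALA and 1249 FPKM untreated. Pgk1, whose enzyme makes ATP, had 747 FPKM with ALA and 1366 FPKM untreated. Pgam1, the phosphoglycerate mutase outside muscle, had 437 FPKM with ALA and 722 FPKM untreated. Their folds were 1.81, 1.76, 1.72, 1.83 and 1.66 lower in that order, next to 1.73 for Gpi1 and 1.75 for the summed phosphofructokinases. These steps span levels from 121 FPKM to 747 FPKM with ALA.

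Reads of several of these genes could come from near-identical copies. Of their 41-base stretches, Pgk1 shares 54.3%, Pgam1 36.6%, Gapdh 26.5%, Gpi1 18.3% and Aldoa 10.1% with other annotated genes, mostly processed pseudogenes. Their values are uncertain for this reason, but these shares do not give the size of an error in FPKM. Tpi1 shares 6.41%, and had a log2 ratio of -0.82. Of the 13 members at least 1.5-fold lower, 6 shared or overlapped under 10% of their sequence: Slc2a1, Hk2, Pfkl, Pfkp, Tpi1 and Pdk1. The other 7 shared 10% or more. Aldoc, the brain aldolase, had 0.0124 FPKM with ALA and was listed at 0 untreated.

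**Figure D3:**
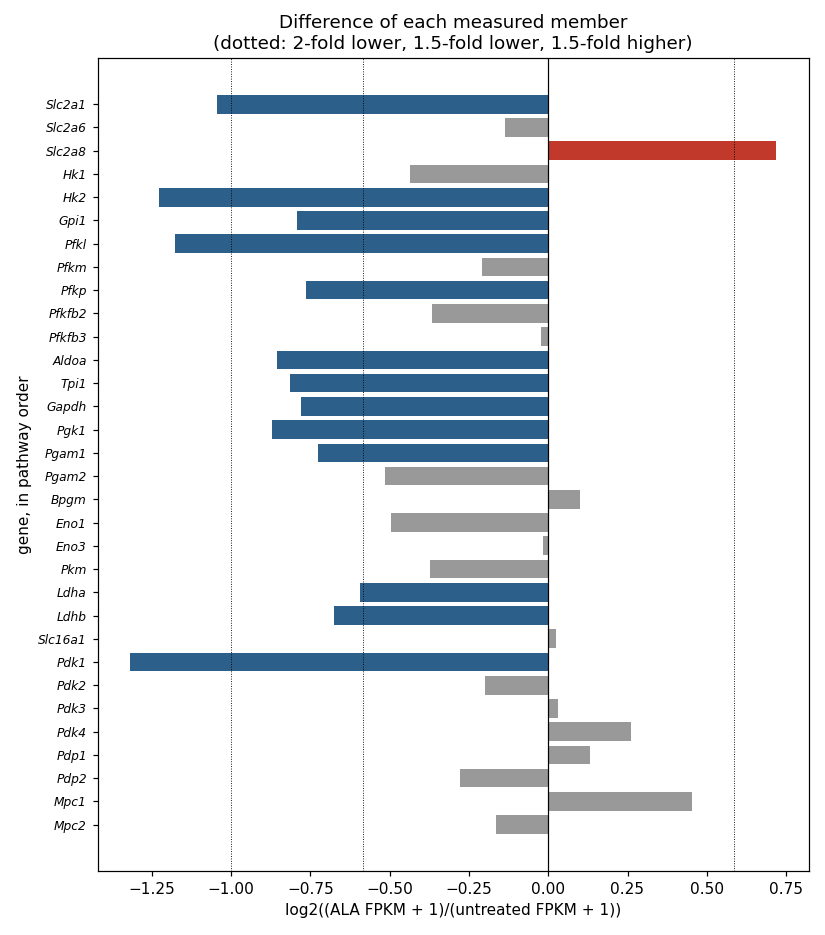
The log2 ratio of ALA over untreated for the 32 measured members, in pathway order from top to bottom, with dotted lines at 2-fold lower, 1.5-fold lower and 1.5-fold higher. Bars of 13 genes reach the 1.5-fold lower line, and the Slc2a8 bar is the only one past the line on the right.

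The lower end of the pathway showed smaller differences. Eno1, the enolase of most tissues, had 353 FPKM with ALA and 498 FPKM untreated, 1.41-fold lower, and shares 27.2% of its sequence, mostly with Eno1b. Eno1b had 90.1 FPKM with ALA and 157 FPKM untreated, and both together had a log2 ratio of -0.56. Eno3, the muscle enolase, had 54.6 FPKM with ALA and 55.3 FPKM untreated, a log2 ratio of -0.02 that turned positive with equal library totals, with equal upper quartiles and when ratios were centred on the median of measured genes. Eno3 shares no 41-base stretch with another gene, and its share of enolase FPKM was 13.4% with ALA and 9.99% untreated. Eno2, the neuronal enolase, had 0.198 FPKM with ALA and 0.694 FPKM untreated, from about 18 reads with ALA and 43 untreated, below the level called measured.

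Pkm, the pyruvate kinase of most tissues, was the most abundant member with ALA, at 1031 FPKM, against 1335 FPKM untreated. Its log2 ratio of -0.37 was smaller in size than that of the summed FPKM of each step from Gpi1 to Pgam1, apart from PFKFB at -0.18. Of its sequence 29.5% is shared. The splice forms of Pkm that differ between muscle and proliferating cells are not separated in values per gene. Pgam2, the muscle mutase, had 1.10 FPKM with ALA and 1.999 FPKM untreated, from about 28 reads with ALA and 36 untreated, a counting interval of 0.318 to 0.912 for the ratio of ALA to untreated. Its plain ratio was 1.82-fold lower, but its log2 ratio of -0.51 left it out of the count of members at least 1.5-fold lower. Bpgm, which makes the bisphosphoglycerate that tunes haemoglobin in red cells, had 10.7 FPKM with ALA and 9.93 FPKM untreated, and its interval of 0.960 to 1.21 includes 1.

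Lactate dehydrogenase is a tetramer of muscle-type and heart-type chains. Ldha had 800.4 FPKM with ALA and 1208 FPKM untreated, 1.51-fold lower. Ldhb, the heart type, had 30.7 FPKM with ALA and 49.6 FPKM untreated, 1.62-fold lower. Their log2 ratios of -0.59 and -0.67 lay 0.08 apart, and Ldha made up 96.3% of the step with ALA and 96.1% untreated. Ldha lay just past the 1.5-fold threshold, and the count of members at least 1.5-fold lower was 12 with equal library totals. Ldha shares 13.7% and Ldhb 26.4% of their sequence with other annotated genes.

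Lactate leaves cells through MCT1 and MCT4. Slc16a1, the gene of MCT1, had 15.8 FPKM with ALA and 15.6 FPKM untreated, and the counting interval of its ratio, 0.953 to 1.09, includes 1. Slc16a3, the gene of MCT4, had 0.0499 FPKM with ALA, about 7 reads, and was listed at 0 untreated.

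PDH kinases switch PDH off, and PDH phosphatases switch it back on. Beside Pdk1, the other kinase genes were all under 1.5-fold apart. Pdk2, a widely expressed kinase, had 7.89 FPKM with ALA and 9.21 FPKM untreated, a log2 ratio of -0.20. Pdk3 had 25.7 FPKM with ALA and 25.2 FPKM untreated, a log2 ratio of 0.03. Pdk4 had 14.2 FPKM with ALA and 11.7 FPKM untreated, a log2 ratio of 0.26. Pdk1 was thus the most abundant PDH kinase transcript untreated, with 58.1% of the step, while with ALA it had 34.3% and Pdk3 had 35.3%. The 4 kinases summed to 72.9 FPKM with ALA and 110.1 FPKM untreated. Pdk1 lies on chromosome 2 from 71873224 to 71903858, shares 0.0374% of its sequence, and ranked 86 from the lowest log2 ratio among all measured genes.

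The phosphatase gene Pdp1 had 26.1 FPKM with ALA and 23.7 FPKM untreated, a log2 ratio of 0.13, and Pdp2 had 2.53 FPKM with ALA and 3.29 FPKM untreated, a log2 ratio of -0.28. The pyruvate carrier is built from both MPC proteins. Mpc1 had 46.4 FPKM with ALA and 33.7 FPKM untreated, a log2 ratio of 0.45, and Mpc2 had 24.4 FPKM with ALA and 27.4 FPKM untreated, a log2 ratio of -0.16. Mpc1 shares 28.2% of its sequence, most of it with 4930506C21Rik, in which 23.05% of its exon bases lie. That neighbour had 1.71 FPKM with ALA and 4.49 FPKM untreated. The summed FPKM of both genes had a log2 ratio of 0.33, which is not an estimate for Mpc1 alone. The measured members of lactate transport, PDH kinases, PDH phosphatases and the carrier, 9 genes, had a median log2 ratio of 0.02, with Pdk1 the only one 1.5-fold apart. The 20 measured members from glucose transport to lactate dehydrogenase, with the PFKFB genes and Bpgm left out, had a median of -0.70. The measured genes left out, Pfkfb2, Pfkfb3 and Bpgm, had smaller differences, with log2 ratios of -0.37, -0.02 and 0.10. Among the 20 are the 7 members at least 1.5-fold lower that share or overlap 10% or more of their sequence.

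The members were also set beside other genes of like abundance. All 10 members averaging at least 100 FPKM were lower with ALA and 8 of them at least 1.5-fold, where 57.4% of the 749 genes at that level were lower and 4.27% at least 1.5-fold. Of the 32 genes at that level that were at least 1.5-fold lower, 25% were members, which are 1.34% of all genes at that level. Averaging at least 300 FPKM there were 8 members, all lower, where 70.9% of the 230 genes were lower, and 6 of the 8 were at least 1.5-fold lower, where 6.52% of the 230 were. All 40 members together summed to 5781 FPKM or 1.13% of the library with ALA, and to 9190 FPKM or 1.70% of the library untreated. The 22 members with a mean between 1 and 100 FPKM had 15 lower, 7 higher and a median log2 ratio of -0.18. At least 1.5-fold lower were 5 of them, or 22.7%, and 1 was at least 1.5-fold higher. At least 2-fold lower were 3, or 13.6%, namely Pdk1, Hk2 and Pfkl. Shares were not taken over all genes between 1 and 100 FPKM, so those of all measured genes stand beside these 22. Of all measured genes 52.2% were lower, 7.16% at least 1.5-fold lower, 2.01% at least 2-fold lower and 5.9% at least 1.5-fold higher.

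**Figure D4:**
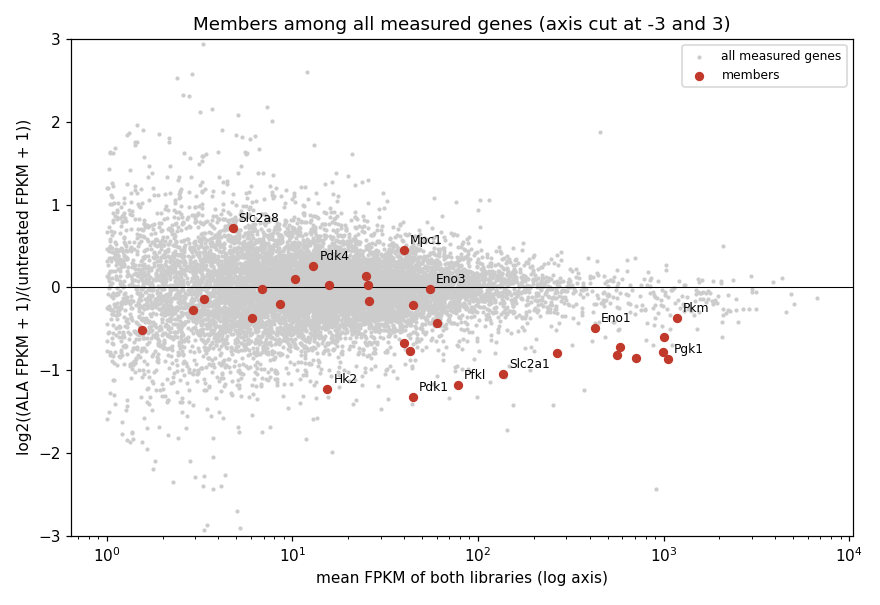
Mean FPKM of both libraries on a log axis against the log2 ratio of ALA over untreated, with all measured genes in grey and the 32 measured members in red. The axis is cut at -3 and 3, which leaves out 9 genes, and the 10 members above 100 FPKM all lie below 0.

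Several members lie near each other. Of the 40 members 8 lie on chromosome 6, where Eno2, Tpi1 and Gapdh sit within 406416 bases, from 124760052 to 125166467 in the deposited table. Between them are 13 other measured genes, of which 4 were lower and 9 higher with ALA. None was at least 1.5-fold lower and 2 were at least 1.5-fold higher. The log2 ratios of the 13 ran from -0.33 to 0.75, with a median of 0.10. Of all measured genes 52.2% were lower, 7.16% at least 1.5-fold lower and 5.9% at least 1.5-fold higher.

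Genes beside the pathway were read in the same way. Among 21 further isozymes and partner genes 4 were measured, none 1.5-fold apart on the log2 scale, and the highest was Bsg, the chaperone of the lactate transporters, with 364 FPKM with ALA and 492 FPKM untreated. Of 10 genes that control glucose uptake and flux 7 were measured, and 1 was at least 1.5-fold lower, where 7.16% of all measured genes were. That gene was Txnip, which restrains glucose uptake, with 77.4 FPKM with ALA and 119 FPKM untreated, and it shares 16.4% of its sequence. Gluconeogenesis had 3 measured genes of 7, led by Pck2 with 46.2 FPKM with ALA and 46.6 FPKM untreated, and a median log2 ratio of -0.06.

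The 5 genes of the PDH complex were all measured, with 4 higher, 1 lower and none 1.5-fold apart on the log2 scale, and Pdha1, the catalytic subunit that PDH kinases phosphorylate, had 128 FPKM with ALA and 126 FPKM untreated. The shuttles that carry cytosolic NADH into mitochondria had 9 measured genes of 10 and none 1.5-fold apart, and Mdh2 was highest with 180.5 FPKM with ALA and 146 FPKM untreated. All 12 genes for entry of other hexoses and for hexosamine synthesis were measured. At least 1.5-fold lower on the log2 scale were 2, against a background of 7.16% of all measured genes. Highest of the 12 was the galactokinase gene Galk1, with 61.8 FPKM with ALA and 69.9 FPKM untreated. Gfpt2, an isozyme of the step that starts hexosamine synthesis, had 3.11 FPKM with ALA and 7.18 FPKM untreated. Gnpnat1, an acetyltransferase of the same route, had 8.80 FPKM with ALA and 15.3 FPKM untreated, but shares 77.25% of its sequence.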

How the data were processed

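Messenger RNA of NIH3T3 cells was sequenced in 1 library with ALA and 1 without. The authors deposited FPKM per gene, per the file headers. The submitters' processing notes name FastQC 0.11.5, TopHat2 2.1.1, Cufflinks 2.2.1 and build mm10. Roles, options, annotation, strand setting and any scaling across libraries are not stated in the labels or headers.

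Members and lists were chosen with earlier results of these data known. All 40 members are accounted for. Measured genes of related lists are named where at least 1.5-fold apart on the log2 scale or highest in FPKM. Some markers below the level called measured are named too, as is the transporter gene Slc2a10. Python 3.11.15, pandas 2.3.3 and scipy 1.17.1 were used. No count model was run on FPKM. The pseudocount was 1, and a mean of 1 FPKM or more made a gene measured. Each list is described by counts and its median beside all measured genes.

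Depth was estimated from the step between low FPKM values of genes with 1 transcript of over 1500 bases. The best fit was 0.27 from 264 genes (ALA) and 0.32 from 179 genes (untreated), where 1 is a perfect fit. Its median over the depths tried was 0.05 (ALA) and 0.08 (untreated). Depths of 31800000 to 32600000 reads (ALA) and 22000000 to 22800000 (untreated) gave nearly as good a fit. Reads per gene were FPKM times transcript length times depth, with exact 95% Clopper-Pearson intervals, which cover counting error only. Gene models were GENCODE vM21, which matched 94.4% of the genes, and shared sequence means exact 41-base matches to other annotated genes. Deposited interval bounds were equal throughout and carried no error.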

Additional observations from a re-analysis of the deposited data

How the results depend on the processing

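Settings tried were pseudocounts of 0.1 and 5, no filter or a mean of at least 5 FPKM, equal library totals, equal upper quartiles, centring on the median of measured genes, and leaving out members with at least 10% shared or overlapping sequence. The number of members at least 1.5-fold lower was 13 and stayed between 12 and 14, except that it was 6 of 21 when members with shared sequence were left out. The number at least 2-fold lower was 4, or 3 with a pseudocount of 5 and with equal totals. The single member at least 1.5-fold higher became 0 with a pseudocount of 5 and where the mean had to reach 5 FPKM. The median log2 ratio was -0.40 and became -0.30 with a pseudocount of 5, -0.24 with no filter, and -0.20 without shared members. Equal totals raised ALA values by 0.08 on the log2 scale. Leaving out shared members left no measured gene in the steps of glucose phosphate isomerase, aldolase, GAPDH, phosphoglycerate kinase, pyruvate kinase and lactate dehydrogenase. No paired analysis was possible because each group has 1 library. Depth limits the members under 1 FPKM, which rest on at most 74 reads per library.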

Other observations

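Gapdh is widely used as a loading control. Its level was 1.72-fold lower with ALA, while 11 other genes in common use as references, listed after the member values were seen, had a median log2 ratio of 0.05. Of these 11, none was at least 1.5-fold lower and 1 was at least 1.5-fold higher, where 7.16% and 5.9% of all measured genes were. That gene was Tfrc, of the transferrin receptor, with 36.1 FPKM with ALA and 21.0 FPKM untreated. Actb had 1123 FPKM with ALA and 935 FPKM untreated, Hprt had 44.4 FPKM with ALA and 43.3 FPKM untreated, and Tbp had 20.1 FPKM with ALA and 19.3 FPKM untreated.

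Hk1os, an antisense RNA gene that overlaps 1.84% of the exon bases of Hk1, had 0.0763 FPKM with ALA and 6.90 FPKM untreated. Without a stated strand setting, reads of Hk1 and Hk1os in the shared bases cannot be told apart. The summed FPKM of both genes had a log2 ratio of -0.57, against -0.44 for Hk1. FPKM are scaled by the length of each gene, so the sum is not an estimate for Hk1.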
